A study of Homo sapiens with 33 samples.

Results

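The genes described here are 47 human genes of DNA replication, chosen by name and function: the licensing factors and the MCM helicase, the proteins that switch the helicase on, the polymerases, the sliding clamp and its loader, the single-strand binding complex, the enzymes that join Okazaki fragments, the suppliers of nucleotides and histones, and the G1/S regulators. Of the 47 genes, 46 had a probe in the annotation used, and 41 passed the filter on detection, among 10038 genes tested. They were followed in the human embryonic stem cell line H9 while it was differentiated with inhibitors of signalling. H9 cells were kept on mouse embryonic fibroblasts and plated on Matrigel before treatment. The LSB groups received LDN-193189, which inhibits BMP type I receptors, and SB431542, which inhibits the receptors of TGF-beta, activin and nodal. The LSB3i groups received these inhibitors together with CHIR 99021, which blocks the kinase GSK3, DAPT, which blocks Notch cleavage by gamma-secretase, and SU5402, which blocks FGF and VEGF receptors. RNA was taken from each treatment on days 3, 5, 7, 9 and 15, and from LSB also on day 2, with 3 arrays (A, B and C) in each of the 11 groups. All groups come from 1 cell line, no array of untreated cells was analysed here, and the labels do not state the schedule of each inhibitor.

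Before a cell enters S phase, the origin recognition complex, CDC6 and CDT1 load the ring of MCM proteins on DNA at replication origins. CDC45 and the GINS complex then join that ring to form the active helicase, and primase, the polymerases, the clamp PCNA and its loader RFC build the new strands behind it. Many of these genes are transcribed shortly before S phase under the control of E2F factors, and cells that leave the cell cycle, such as neurons, lower them.

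Because E2F factors are known to act on several of these promoters, the letters just before the gene start are shown for 6 members that hold an E2F-type motif and for MCM2, which holds none and is described at length in the results. Each sequence is the 100 bases upstream of the gene start in RefSeq (GRCh38.p14), read 5′ to 3′ on the strand of the gene. Capitals mark the E2F-type motifs TTTGGCGC, TTTCCCGC, TTTGGCGG and TTTCGCGC and the CCAAT box, on either strand. In MCM6 a pair of E2F-type matches on opposite strands share bases, and in CDT1 a pair of them adjoin.
CDT1: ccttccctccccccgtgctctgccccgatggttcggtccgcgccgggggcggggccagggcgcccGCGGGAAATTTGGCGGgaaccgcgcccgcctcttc
MCM6: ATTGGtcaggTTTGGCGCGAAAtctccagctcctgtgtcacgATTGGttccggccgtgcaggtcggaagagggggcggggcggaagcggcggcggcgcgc
MCM7: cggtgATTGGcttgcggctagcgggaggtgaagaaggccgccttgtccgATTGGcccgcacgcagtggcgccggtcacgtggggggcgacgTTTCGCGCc
PCNA: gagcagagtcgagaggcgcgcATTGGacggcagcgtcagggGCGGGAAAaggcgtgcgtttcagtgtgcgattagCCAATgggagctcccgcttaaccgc
POLA2: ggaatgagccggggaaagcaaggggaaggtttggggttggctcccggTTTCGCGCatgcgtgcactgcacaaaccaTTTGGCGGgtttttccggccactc
TYMS: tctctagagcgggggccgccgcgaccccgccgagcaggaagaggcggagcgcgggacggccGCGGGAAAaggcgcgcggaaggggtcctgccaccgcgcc
MCM2: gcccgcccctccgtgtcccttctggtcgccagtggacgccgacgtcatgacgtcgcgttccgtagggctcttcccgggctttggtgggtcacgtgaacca

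These windows lie at chr16:88803689-88803788 on the plus strand (CDT1), chr2:135876444-135876543 on the minus strand (MCM6), chr7:100101398-100101497 on the minus strand (MCM7), chr20:5126623-5126722 on the minus strand (PCNA), chr11:65261862-65261961 on the plus strand (POLA2), chr18:657553-657652 on the plus strand (TYMS) and chr3:127598311-127598410 on the plus strand (MCM2). Promoter sequence was matched for 37 of the 41 tested genes. In the 250 bases upstream, 15 of these 37 (40.5%) held at least 1 of the E2F-type motifs, against 794 of 27305 promoters in the table (2.91%). The CCAAT box was found in 19 of 37 (51.4%), against 33% of all promoters, and the overlap of the motifs was not removed from these counts. The cell cycle homology region motif TTTGAA was found in 1 of 37 (2.7%, against 13.6%), and TTCGAA in 1 of 37 (2.7%, against 1.2%). A match describes the letters only.

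Levels are given as normalised log2 intensities, and differences as log2 differences with their standard error (SE). A gene was called higher or lower where limma's adjusted p was under 0.05 and the difference was at least 2-fold. The 6 members without a test were CDC6, the loader of the MCM ring (detected on 6 of 33 arrays), PRIM2, the large primase subunit (4 arrays), E2F1 (3 arrays), GINS1 and CCNE2 (0 arrays each) and the polymerase delta subunit gene POLD2, for which no probe was listed. Of the 41 tested, 30 were detected on all 33 arrays. The mean signal of an array ran from 298.2 to 871.6, and precision is limited by the 3 arrays in a group. Separate cultures are not stated in the labels, so a p-value here reflects the spread between arrays, which may be technical. The 3 arrays of LSB day 7 spread most (residual SD 0.813 over all genes, against 0.213 to 0.457 in the other groups). By mean correlation with the single arrays of each group, 9 arrays were nearer to another group than to their own. Of these, 4 were the LSB3i A arrays of days 3 to 9. LSB3i array A of day 5 was nearest to the LSB3i day 3 arrays. That of day 7 was nearest to day 5 and that of day 9 to day 7. Each of these is an earlier time point. LSB3i array A of day 3 was nearest to LSB day 3, as was array B. The mean log2 level of 11 neuronal genes on LSB3i array A was 7.21 at day 7, beside 8.98 and 9.37 on B and C, and 9.61 at day 9, beside 10.75 and 10.79. The LSB3i means of days 5 to 9 thus hold 1 array that resembles an earlier day. Without these 4 arrays, the counts of called members given further on were 8 in place of 9 between treatments at day 9, 4 in place of 5 in LSB3i from day 3 to day 9, 12 in place of 14 from day 9 to day 15, 23 in place of 24 from day 3 to day 15, and 25 in place of 28 for the difference of changes. In RNA from a whole culture, fewer cells of a type and less RNA per cell cannot be told apart.

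Taken as a median over the 41 genes, the level stayed near its starting value through day 7 and was then low at day 9 in LSB and at day 15 in LSB3i. Against the LSB day 2 mean, the median log2 difference lay between -0.06 and 0.20 on every array of days 3 and 5, and between 0.02 and 0.13 on the LSB day 7 arrays. The LSB3i day 7 arrays stood at 0.15 (A), -0.24 (B) and -0.23 (C). At LSB day 9 the medians were -0.51, -1.08 and -1.11, and at LSB day 15 they were 0.20, 0.07 and 0.13. LSB3i ran the other way, with -0.13, -0.32 and -0.18 at day 9 and -1.13, -1.12 and -1.24 at day 15. The LSB day 9 and the LSB3i day 15 arrays are thus the low ones, and they do not overlap with the other groups of days 9 and 15. Gene by gene, the lowest group mean was LSB3i day 15 for 25 of the 41 and LSB day 9 for 9. For the 4 genes lowest at LSB day 7 (GINS3, ORC6, POLD1 and RRM1), array C of that group was far below A and B.

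**Figure D1:**
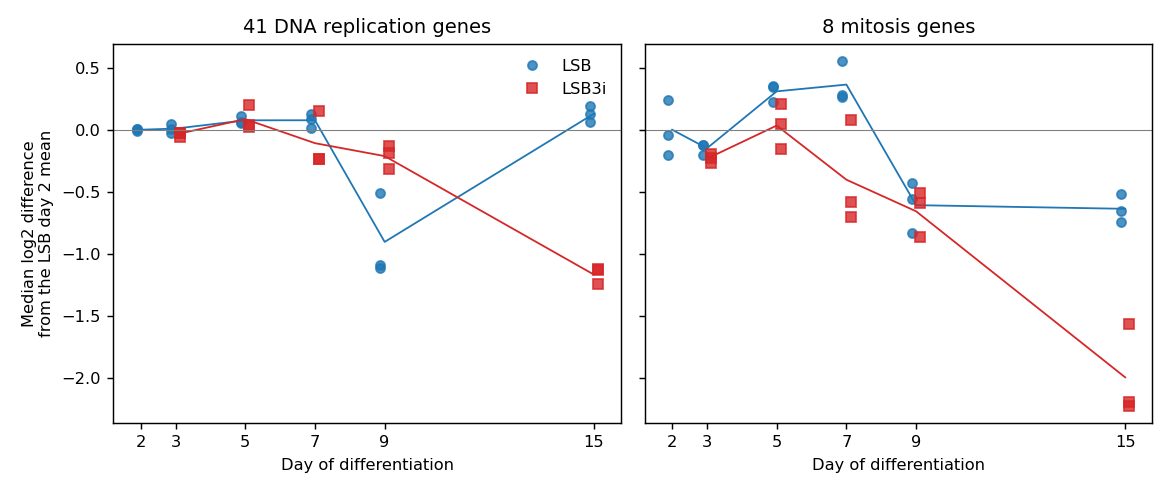
Median log2 difference from the LSB day 2 mean (vertical axis) by day of differentiation (horizontal axis) for the 41 DNA replication genes (left) and for 8 mitosis genes (right); each point is an array and lines join group means of LSB (blue circles) and LSB3i (red squares). The replication genes are low on the LSB day 9 arrays (-0.51 to -1.11) and the LSB3i day 15 arrays (-1.12 to -1.24), and only the latter are also the lowest for mitosis.

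The first question is whether the added inhibitors moved these genes early. At day 3, no member was called between LSB3i and LSB, where 0.209% of all genes were called lower and 0.0498% higher, and 2 members had an unadjusted p under 0.05. At day 5 again none was called, against 2.12% lower and 1.1% higher among all genes, and 3 had an unadjusted p under 0.05. At day 7, 3 of 41 were higher in LSB3i and none lower, against 12.8% and 6.51% of all genes. POLA1, the catalytic subunit of polymerase alpha, stood at 11.01, 10.59 and 10.60 on the LSB3i arrays and at 9.64, 9.47 and 8.80 on the LSB arrays, a difference of 1.43 ± 0.20 (adjusted p = 1.1e-05). UHRF1, which guides maintenance DNA methylation to new strands, was higher by 1.09 ± 0.29. Its call was lost without LSB array B and in the authors' processed values. GINS3, a subunit of the GINS complex, was called at 1.90 ± 0.48, but its LSB array C read 5.28 beside 8.77 and 8.50, and without that array the difference was 0.79 and not called. The count at day 7, of both directions together, was 10 without LSB array A and 7 without LSB array B. It was 5 (2 lower and 3 higher) without LSB3i array A. It was 5 again when array A of LSB3i was left out on each of days 3 to 9. With no minimum fold, 8 members were lower and 6 higher, and the median over all 41 was -0.03.

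At day 9 the LSB cells were low. Against LSB day 3, 19 of 41 members fell and none rose, where 8.86% of all genes fell and 7.28% rose. The members' median was -0.96, beside -0.01 for all genes. This comparison and the LSB3i one of the same days were added after the values had been seen. The fall ran through all 4 helicase activation genes tested. CDC45 stood at 10.46, 10.46 and 10.43 on the day 3 arrays and at 9.23, 8.60 and 8.25 at day 9, a fall of 1.76 on the log2 scale. MCM10, which helps to start the helicase, fell from 10.93, 11.15 and 10.88 to 10.33, 9.60 and 9.46, and GINS2 and GINS3 fell by 1.13 and 1.72. Every day 9 array of these genes lay below every day 3 array. The call of GINS2 was lost without day 9 array B or C, that of GMNN without day 3 or day 9 array C, and that of RFC2 without day 3 array C or day 9 array B.

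Among the licensing genes, 5 of 10 fell in LSB from day 3 to day 9. ORC1, the largest subunit of the origin recognition complex, fell by 1.75, CDT1 by 1.66, MCM4 by 1.45, MCM5 by 1.42 and GMNN, whose product geminin holds CDT1 in check, by 1.04. MCM2 (-0.67 ± 0.20), MCM3 (-0.66 ± 0.17), MCM7 (-0.52 ± 0.21) and MCM6 (-0.26 ± 0.24) did not reach 2-fold. Whether subunits of the ring differed from one another was not tested.

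Primase and polymerase subunits were split as well. PRIM1, the catalytic primase subunit, fell by 1.57, POLE2, a subunit of polymerase epsilon, by 1.39 and POLA2, the regulatory subunit of polymerase alpha, by 1.29. POLA1 (-0.97 ± 0.20), POLE (-0.47 ± 0.30) and POLD1 (-0.07 ± 0.51), the catalytic subunits of polymerases alpha, epsilon and delta, were not called. Of the clamp loader, RFC3 and RFC2 fell by 1.34 and 1.02, while RFC4 stood at -0.37 ± 0.23 and PCNA at -0.75 ± 0.22. The RFC3 and RFC2 calls were lost when all probes of a gene were averaged.

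No gene of the single-strand binding complex was called at this step. RPA1 read 12.45, 12.39 and 12.44 at LSB day 3 and 12.32, 12.22 and 12.26 at day 9 (-0.16 ± 0.20). RPA2 differed by -0.23 ± 0.22 and RPA3 by -0.56 ± 0.21. Of the genes that supply nucleotides, 3 of 5 fell. DUT, which removes dUTP from the pool, dropped from 9.71, 9.30 and 9.69 to 7.89, 6.70 and 7.36, a fall of 2.25, the largest fitted among the members. The thymidine kinase gene TK1 fell by 1.37. RRM2, the small subunit of ribonucleotide reductase, was detected on only 1 of the 3 day 9 arrays, so the size of its fall (1.61 as fitted) is uncertain: the difference ran from -1.98 to -0.68 over the alternatives and the call was lost in 2 of them, an offset of 50 and the authors' processed values. CCNE1, which encodes the G1/S cyclin E1, fell from 9.07, 9.44 and 9.60 to 8.05, 7.43 and 7.47, and CHAF1B, of the histone chaperone CAF-1, fell by 1.22.

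In LSB3i the same days gave fewer calls, 4 of 41 lower (9.76%) and 1 higher (2.44%), against 8.35% and 8.48% of all genes, with a member median of -0.31. The share called lower was thus near that of all genes. Of the 5 calls, 2 held under all alternatives run. The 4 called lower were TK1 (by 1.31), ORC1 (by 1.25), CCNE1 (by 1.09) and PRIM1 (by 1.0), and UHRF1 was called higher by 1.72. The count was 2 without LSB3i day 9 array B and 3 without LSB3i day 3 array C. The difference between the day 3 to day 9 changes of the treatments was not tested, but the treatments were compared at day 9 itself.

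At day 9, 9 of 41 members were higher in LSB3i than in LSB and none lower, beside 8.32% and 8.26% of all genes. RRM2 was higher. It read 8.67, 8.12 and 8.80 in LSB3i and 6.57, 5.67 and 5.21 in LSB, a difference of 2.71 ± 0.34 (adjusted p = 1.4e-06). Only 1 of the 3 LSB arrays was above background, and the size of the difference ran from 1.36 to 3.08 over the alternatives, with the call kept in each. DUT differed by 1.88 ± 0.28, CDC45 by 1.63 ± 0.23, GINS3 by 1.57 ± 0.48 and UHRF1 by 1.56 ± 0.29. The other DUT probes past the filter gave 2.12 and, for the dimmest, 0.26. TYMS, which makes thymidylate, read 12.58, 12.41 and 12.46 in LSB3i and 11.58, 10.98 and 11.09 in LSB. It was called with POLA1 (1.26 ± 0.20), POLA2 (1.15 ± 0.17) and the flap endonuclease gene FEN1 (1.10 ± 0.18), which read 11.54, 11.28 and 11.47 against 10.86, 10.02 and 10.09. In all 9, the LSB3i arrays lay above the LSB arrays. The FEN1 and GINS3 calls were lost without LSB array B or C, and that of GINS3 also without LSB3i array A. The POLA2 call was lost with an offset of 50 and in the authors' processed values. Of the 9 calls, 6 held under all alternatives run. TK1 (-0.29 ± 0.26), RPA2 (-0.30 ± 0.22) and RPA3 (-0.32 ± 0.21) leaned the other way without a call.

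**Figure D2:**
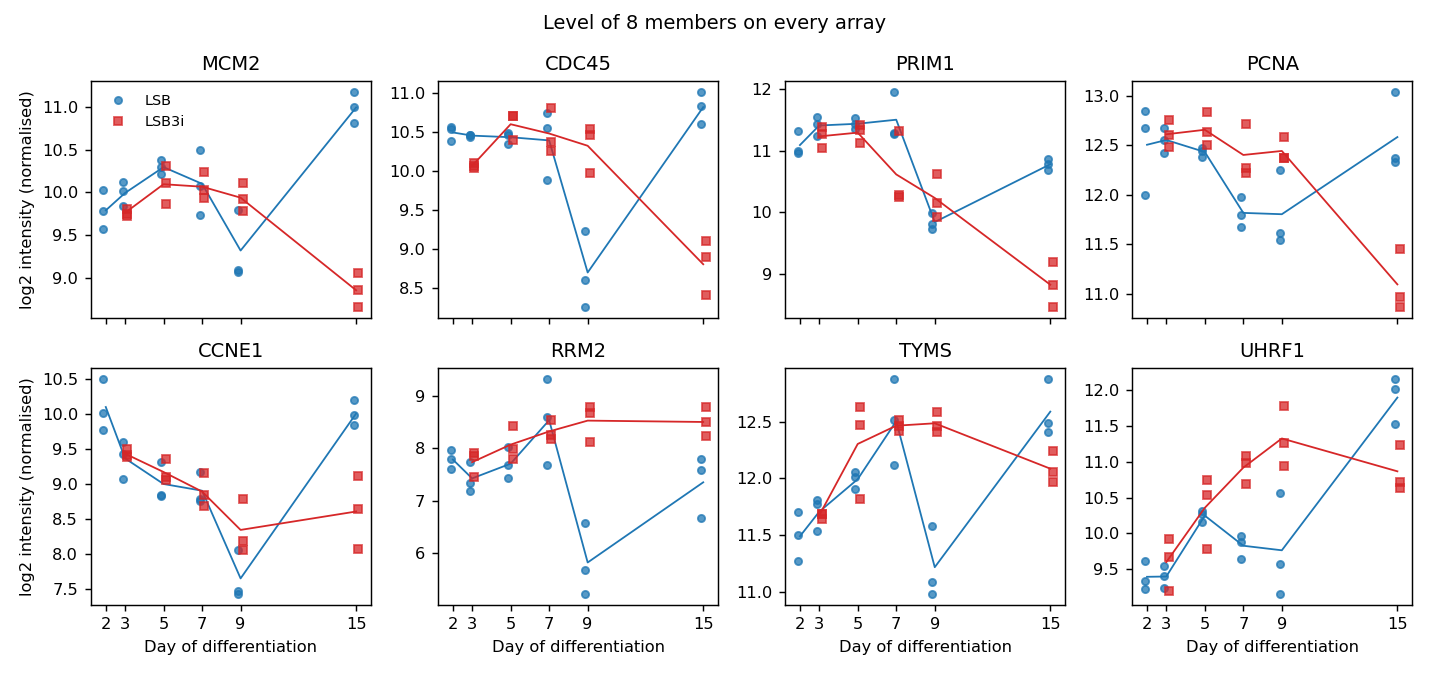
Normalised log2 intensity of 8 members on every array (vertical axis, one scale per gene) by day of differentiation (horizontal axis), with LSB as blue circles, LSB3i as red squares and lines through the means of 3 arrays. MCM2, CDC45 and PCNA end high in LSB and low in LSB3i, RRM2 is low only on the LSB day 9 arrays (5.21 to 6.57) next to 6.66 or more elsewhere, and UHRF1 ends above its day 3 level under both treatments.

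From day 9 to day 15 in LSB, 19 of 41 members rose and none fell, against 9.75% and 10% of all genes, with a member median of 0.94. CCNE1 rose from 8.05, 7.43 and 7.47 to 10.20, 9.98 and 9.84, by 2.36 ± 0.25 (adjusted p = 1e-07). UHRF1 rose by 2.13, CDC45 by 2.12, and POLA2 by 2.05, from 8.32, 8.12 and 7.98 to 10.02, 10.29 and 10.26. All 4 helicase activation genes rose, as did MCM2, MCM4, MCM5 and MCM7, both genes of Okazaki fragment joining (FEN1 by 1.10 and the ligase gene LIG1 by 1.35), and TYMS, TK1, DUT, RFC3, CHAF1B and RRM2, the last of which was above background on 1 of the 3 day 9 arrays. In all 19 the day 15 arrays lay above the day 9 arrays. The calls of FEN1 and GINS3 were lost without LSB day 9 array B or C, that of FEN1 also without day 15 array C and that of GINS3 without day 15 array B.

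The day 15 level of LSB was near that of day 3 for most members. Between these days 3 of 41 were higher and 1 lower, against 10.6% and 12.1% of all genes, and the member median was 0.14. UHRF1 rose from 9.24, 9.41 and 9.55 to 12.15, 11.52 and 12.01 (2.49 ± 0.29). MCM7 rose by 1.08 and MCM2 by 1.002, which is at the 2-fold limit. ORC1 was called lower (-1.04), with 8.23, 6.14 and 8.38 at day 15, but the value rests on array B: without it the difference was -0.32 and not called, and the call was lost in 9 of 18 alternatives. Without LSB day 3 array A or LSB day 15 array C only 2 members were called. Other treatments of the intensities, given in the closing section, also left 1 or 2 calls, and UHRF1 alone was called under all alternatives run.

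Of the 5 days compared, day 15 had the highest count of called members. Of 41 members, 29 were lower in LSB3i and 1 higher, against 15.8% and 13.3% of all genes. The member median was -1.39, beside -0.10 for all genes. The groups did not overlap for 29 of the 30 called members, the exception being ORC1. Without the LSB day 7 arrays, which share in the estimate of the spread, the count was 30 lower and 1 higher, and with GINS3 added (-1.05) all 4 helicase activation genes were lower.

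Of the 10 licensing genes, 9 were lower at day 15. MCM2 read 8.66, 9.05 and 8.85 in LSB3i and 11.001, 10.81 and 11.18 in LSB, a difference of -2.14 ± 0.20 (4.41-fold, adjusted p = 1.7e-09), the largest of the members. MCM5 read 8.41, 7.73 and 9.27 in LSB3i and 10.22, 9.95 and 10.77 in LSB (-1.84 ± 0.28). The LSB3i arrays of both genes all lay below the LSB arrays. MCM7 differed by -1.71 ± 0.21, MCM6 by -1.32 ± 0.24, MCM4 by -1.30 ± 0.23 and MCM3 by -1.16 ± 0.17, so that all 6 subunits of the ring were at least 2-fold lower. CDT1 was lower by 1.67 in size (5.90, 7.27 and 7.49 against 8.79, 9.14 and 7.75) and GMNN by 1.35. ORC1 was not detected on any LSB3i day 15 array (5.72, 6.05 and 6.59). As processed here, it was at least 1.65-fold lower than in LSB, where array B (6.14) lay within the LSB3i range. Its log2 difference ran from -2.18 to -0.72 over the alternatives, and the call was lost in 3 of 18.

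The remaining licensing gene, ORC6, was at 15.06, 15.04 and 14.91 in LSB3i and 14.83, 14.58 and 14.72 in LSB (0.29 ± 0.93). Its probes disagreed. The probe used, the brighter, gave 0.29, and the dimmer probe gave -0.53. RFC2 was the other gene among 15 with several probes past the filter whose probes differed in sign at day 15 (-0.54 for the probe used and 0.22 for the dimmer).

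Helicase activation, priming and elongation genes followed. CDC45 read 9.10, 8.40 and 8.90 in LSB3i and 10.60, 11.01 and 10.83 in LSB (-2.02 ± 0.23), and MCM10 differed by -1.53 ± 0.18. GINS2 stood at 11.45, 11.46 and 10.41 against 12.61, 12.54 and 12.53 (-1.45 ± 0.25). PRIM1 stood at 9.20, 8.81 and 8.46 against 10.79, 10.69 and 10.86 (-1.96 ± 0.24). For these 4 genes every LSB3i array was below every LSB array. POLE2 (-1.48 ± 0.26) and POLA1 (-1.26 ± 0.20) were also lower. POLA2 (-0.68 ± 0.17), POLD1 (-0.92 ± 0.51) and POLE (0.16 ± 0.30) were not called, which makes 3 of 6 in this group.

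The sliding clamp and its loader were lower in 5 of 6 genes. PCNA read 10.96, 11.45 and 10.87 in LSB3i and 13.04, 12.38 and 12.33 in LSB, 2.81-fold lower. RFC4 stood at 10.62, 10.13 and 10.32 against 11.97, 12.30 and 12.50 (-1.90 ± 0.23), and RFC5 at 10.19, 9.60 and 9.84 against 11.64, 11.32 and 11.33 (-1.56 ± 0.18). RFC1, the large subunit of the loader, read 8.73, 9.41 and 9.06 against 11.10, 10.25 and 10.88 (-1.68 ± 0.46). The arrays did not overlap in any of these, nor in RFC3 (-1.39 ± 0.26). All 3 single-strand binding genes, none of which had been called in the LSB fall at day 9, were lower here. RPA3 read 11.17, 11.37 and 10.99 against 13.03, 12.77 and 13.03 (-1.77 ± 0.21), RPA1 11.72, 10.69 and 10.88 against 12.72, 12.47 and 12.71 (-1.54 ± 0.20), and RPA2 11.30, 11.06 and 10.90 against 11.90, 12.45 and 12.46 (-1.18 ± 0.22). In each the LSB3i arrays were the lower ones.

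The genes of fragment joining, nucleotide supply and chromatin were mixed. LIG1 read 7.98, 7.83 and 8.10 in LSB3i and 9.83, 9.04 and 9.74 in LSB (-1.57 ± 0.18), whereas FEN1 differed by -0.60 ± 0.18 and was not called. CHAF1B read 6.82, 7.49 and 7.42 against 9.74, 8.52 and 8.91 (-1.81 ± 0.28), and its partner CHAF1A 5.98, 7.12 and 4.95 against 7.95, 7.79 and 7.53 (-1.74 ± 0.46). Both were lower without overlap, as was UHRF1 (-1.03 ± 0.29), and SLBP, whose product binds the stem-loop of histone mRNA, was not called (-0.64 ± 0.19). CCNE1 was lower by 1.40 in size. The UHRF1 call was lost without array A or C of LSB or array A or B of LSB3i, and the RFC3 call without LSB3i array C. CHAF1A is a dim probe, detected on 26 of 33 arrays and on only 1 of the 3 LSB3i day 15 arrays, so the size of its difference is uncertain: it ran from -2.29 to -0.81 over the alternatives, and the call was lost in the authors' processed values. CDT1 and CHAF1B were each detected on 2 of these 3 arrays. The CDT1 difference ran from -2.08 to -0.96 over the alternatives, with the call lost in the authors' processed values.

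Of the 5 nucleotide supply genes, 1 was lower and 1 higher at day 15. TK1 read 9.37, 8.33 and 9.40 in LSB3i and 10.32, 10.30 and 9.84 in LSB (-1.12 ± 0.26). RRM2 was higher, at 8.78, 8.23 and 8.49 in LSB3i and 7.79, 7.59 and 6.66 in LSB (1.15 ± 0.34, adjusted p = 0.00771). TYMS differed by -0.50 ± 0.20, DUT by -0.08 ± 0.28 and RRM1, the large reductase subunit, by -0.97 ± 1.03. The wide error of RRM1 comes with the LSB day 7 array C, which read 5.53 beside 13.40 and 13.14. At day 15, RRM1 read 12.73, 12.67 and 12.48 in LSB3i and 13.55, 13.84 and 13.40 in LSB, without overlap. The TK1 call was lost in 3 of 18 alternatives: without LSB3i array B, with an offset of 50 and in the authors' processed values. The RRM2 call was lost in 4 of 18. These were the fit without LSB array C, array weights, an offset of 50 and the authors' processed values. The RRM2 difference ran from 0.68 to 1.37 over the alternatives. A further DUT probe gave -1.31 at day 15.

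**Figure D3:**
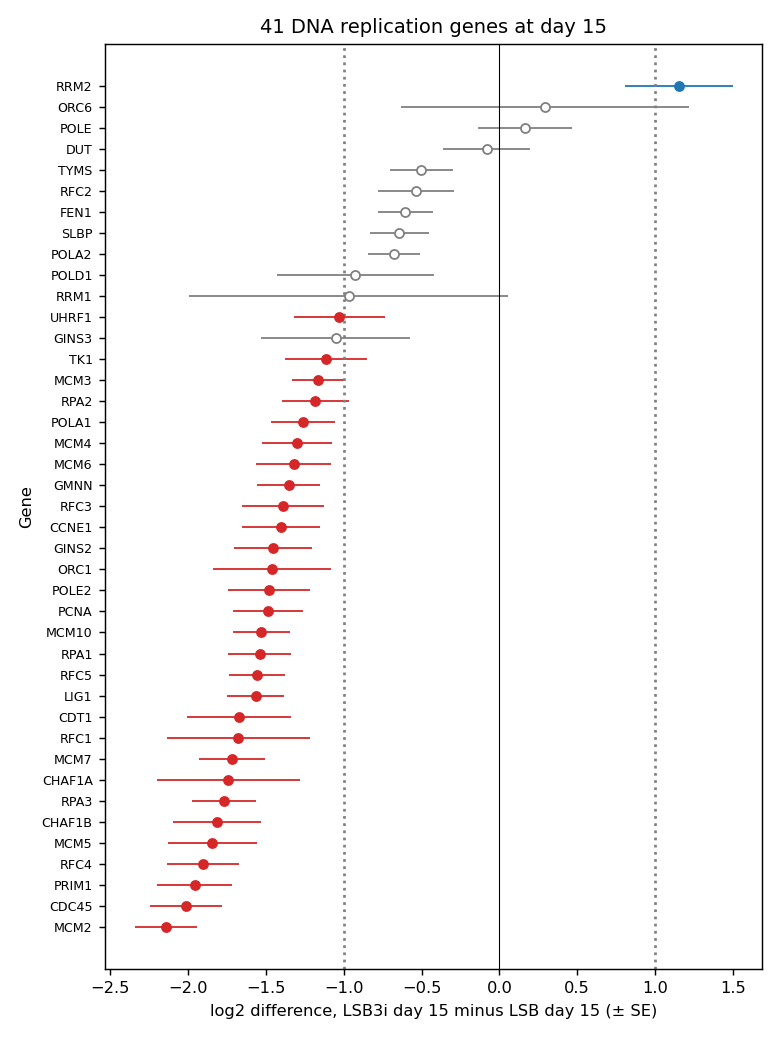
Log2 difference of LSB3i minus LSB at day 15 (horizontal axis, ± SE) for the 41 genes, sorted, with 3 arrays per group; red points were called lower, the blue point higher, open grey points were not called, and dotted lines mark 2-fold. MCM2 (-2.14) and CDC45 (-2.02) lie at one end and RRM2 (1.15) at the other.

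Within LSB3i, from day 3 to day 15, 23 of 41 members fell and 1 rose, against 22.9% and 19.6% of all genes, with a member median of -1.13 beside -0.11. CDT1 fell from 9.65, 9.58 and 9.33 to 5.90, 7.27 and 7.49, by 2.64 on the log2 scale. Its log2 change ran from -2.94 to -1.67 over the alternatives, with the call kept in each. PRIM1 fell by 2.41 (5.31-fold). POLE2 fell from 11.04, 10.75 and 11.02 to 9.11, 8.50 and 8.90, by 2.10. POLA1 fell by 1.73, RPA3 by 1.73 and GMNN by 1.69. ORC1 stood at 8.41, 8.33 and 8.83 at day 3 and, as processed here, was at least 3.18-fold lower at day 15. Its log2 difference ran from -2.64 to -1.24 over the alternatives. All 6 clamp and loader genes, all 4 helicase activation genes and all 3 RPA genes fell. By contrast none of the 5 nucleotide supply genes and neither FEN1 nor LIG1 reached a call. Of the 6 MCM ring genes MCM4 and MCM5 were called lower (by 1.33 and 1.13). This contrast depends on the fold limit. With limma's adjusted p under 0.05 alone, 8 of 10 licensing genes were lower. So were FEN1 and LIG1 (-0.57 each) and 2 of the 5 nucleotide supply genes. The dimmer MCM3 probe gave -1.74, against -0.83 for the probe used. MCM5 and CHAF1A were called although their groups overlapped. UHRF1 rose by 1.27. The PCNA and RFC2 calls were lost when all probes of a gene were averaged, a further PCNA probe giving -0.45. Leaving out 1 of the arrays ended the calls of CHAF1A, GINS2 and RFC3 (day 15 array C), RPA1 (day 15 array B), MCM5 (day 3 array A or day 15 array B), and GINS3 and RPA2 (day 3 array B or day 15 array B or C).

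The later part of this interval was compared on its own. From day 9 to day 15, 14 members fell in LSB3i and none rose, against 14.9% and 13.1% of all genes, with a median of -0.72. POLA1 fell from 10.68, 10.51 and 10.40 to 8.38, 8.79 and 8.99, by 1.81. CDT1 fell by 1.73, CDC45 by 1.52, PRIM1 by 1.41, PCNA by 1.35, RFC1 by 1.33, GMNN by 1.29, RFC4 by 1.28, POLE2, RFC5 and RPA1 by 1.25 each, MCM2 by 1.08 and RFC3 by 1.05. ORC1, undetected at day 15, was at least 1.34-fold lower as processed here, and its log2 difference ran from -1.39 to -0.48 over the alternatives. TK1 (0.66 ± 0.26) and CCNE1 (0.26 ± 0.25), which were called lower from day 3 to day 9, were not called here. All 14 had groups without overlap. The PCNA call was lost when all probes of a gene were averaged, a further PCNA probe giving -0.34. The CDT1 call was lost in the authors' processed values. The calls of MCM2 and ORC1 were lost without day 9 array C or day 15 array A, that of RFC1 without array A of either day and that of RFC3 without day 9 array A or day 15 array C.

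**Figure D4:**
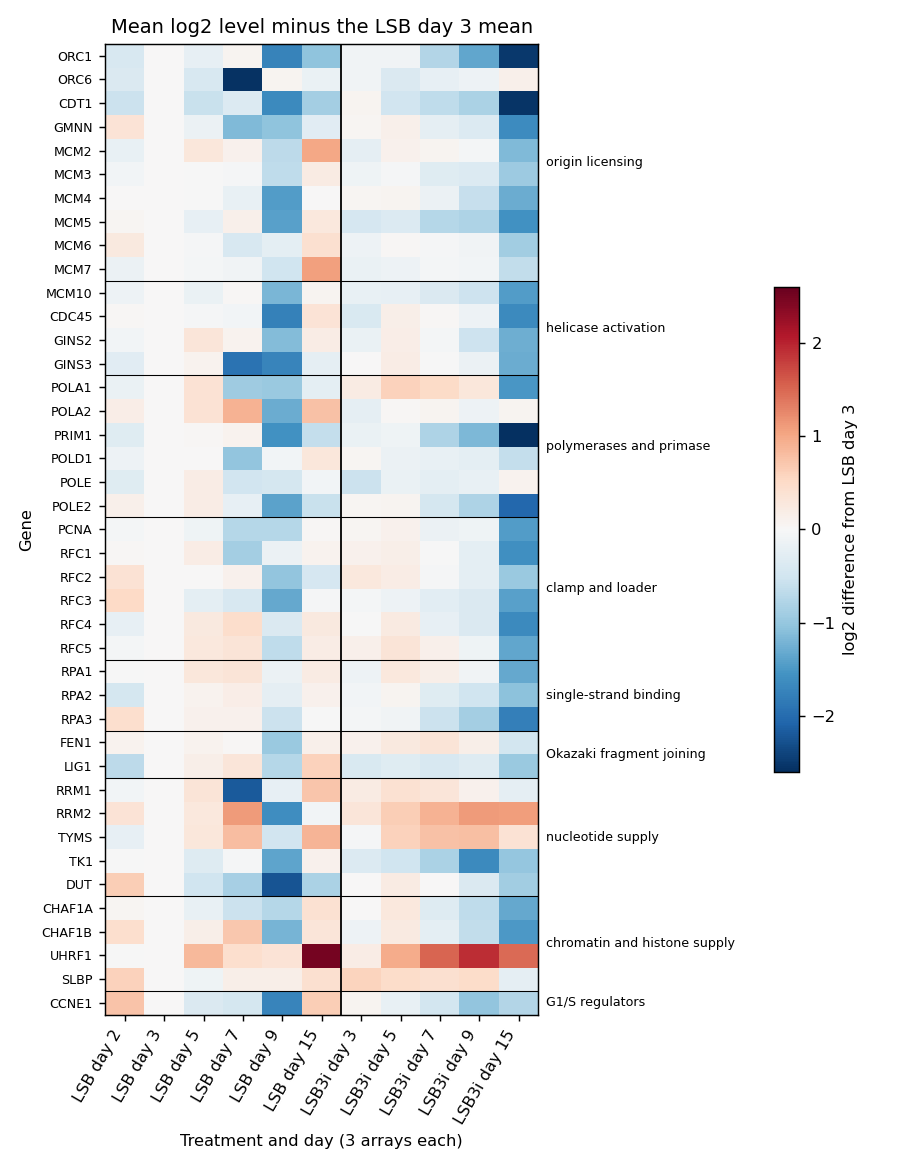
Mean log2 level of each of the 41 genes minus its own LSB day 3 mean (colour, blue lower and red higher) for the 11 groups of 3 arrays (columns), with genes ordered by role (rows). The LSB day 9 and LSB3i day 15 columns are the bluest, the nucleotide supply rows are paler at LSB3i day 15, and the single dark cells at LSB day 7 (ORC6, RRM1, GINS3) come from array C.

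The changes from day 3 to day 15 were then set against each other. In 28 of 41 members the change was lower in LSB3i than in LSB, and in none higher, against 13.3% and 13% of all genes, with a median difference of -1.34 beside -0.09. MCM2 differed most, by -1.91 ± 0.28 (adjusted p = 8.3e-06), with a change of 1.002 in LSB and -0.91 in LSB3i. RFC4 differed by -1.90 ± 0.33, RFC1 by -1.79 ± 0.65, PRIM1 by -1.78 ± 0.34 and CDT1 by -1.75 ± 0.47. CHAF1A, mostly undetected at LSB3i day 15, was called with a difference that ran from -2.31 to -0.81 over the alternatives. UHRF1, which rose under both treatments, rose less in LSB3i (-1.23 ± 0.41). RRM2 (0.84 ± 0.49), POLE (0.71 ± 0.43) and ORC6 (0.39 ± 1.31) were the members with a positive difference, and none was called. The dimmer ORC6 probe gave -0.74. For RFC2 the probe used gave -0.80 and the dimmer probe 0.38. The calls of RFC1 and CHAF1A were each lost under 8 of the 12 fits that left out 1 array, that of UHRF1 under 4, that of MCM3 under 3, and those of GINS2 and RFC3 without LSB3i day 15 array C. These comparisons share arrays with one another and are not independent of each other.

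**Figure D5:**
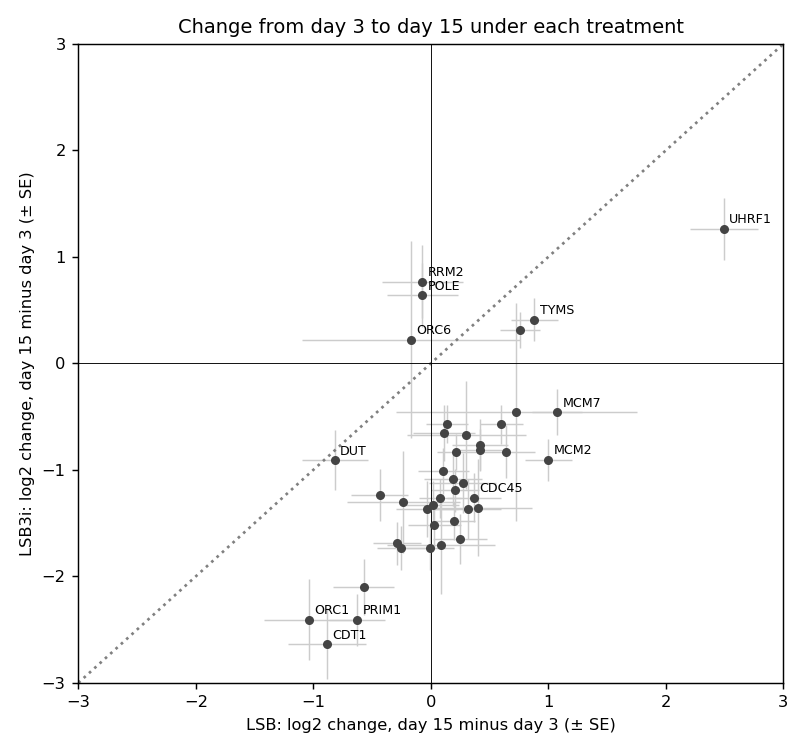
Log2 change from day 3 to day 15 in LSB (horizontal axis) and in LSB3i (vertical axis) for the 41 genes, with SE bars in grey and a dotted line of equal change. Most points lie below the line near 0 on the horizontal axis, with a median of 0.14 in LSB and -1.13 in LSB3i, and UHRF1 (2.49 and 1.27) stands alone at the upper right.

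Other genes of replication, listed by function and not among the 47, were counted in the same fit. Of 46 listed, 38 were tested. At day 15, 20 (52.6%) were lower in LSB3i than in LSB and 2 (5.26%) higher, against 15.8% and 13.3% of all genes, with a median of -1.17. DTL, which directs the destruction of CDT1, differed by -2.55 ± 0.36, the polymerase delta subunit gene POLD3 by -2.36 ± 0.35, WDHD1 by -2.35 ± 0.29 and E2F2 by -2.34 ± 0.39. The 2 that were higher were MCMBP, which binds MCM proteins (1.16 ± 0.37), and ORC4 (1.14 ± 0.28). From day 3 to day 15 in LSB3i, 23 of 38 (60.5%) fell and 2 rose, against 22.9% and 19.6% of all genes. From LSB day 3 to day 9, 9 of 38 (23.7%) fell and none rose, against 8.86% and 7.28%, led by the DNA methyltransferase gene DNMT3B (-2.91 ± 0.29) and CDCA7 (-2.33 ± 0.29). From LSB day 9 to day 15, 5 (13.2%) rose and 2 (5.26%) fell, against 9.75% and 10% of all genes, so the share that rose was near that of all genes. E2F2 rose by 3.30 ± 0.39. Between treatments at day 9, 3 of 38 (7.89%) were higher in LSB3i and none lower, with a median of 0.10. Among all genes 8.32% were higher and 8.26% lower, so the share that was higher was near that of all genes. At day 7, 9 of 38 (23.7%) were higher and none lower, against 12.8% and 6.51% of all genes.

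Genes of mitosis, the later step of the cell cycle, are given beside the replication genes. Of 8 tested (MKI67, TOP2A, CCNB1, CCNB2, CDK1, BUB1, AURKA and PLK1), 0 were called from LSB day 9 to day 15, with a median of 0.01, where the replication genes had a median of 0.94. Their array medians against LSB day 2 were -0.83, -0.43 and -0.56 at LSB day 9 and -0.65, -0.51 and -0.74 at LSB day 15. At LSB3i day 15 they were -1.56, -2.19 and -2.22, and 4 of 8 were lower than in LSB (CCNB2 by 1.87, CCNB1 by 1.77, PLK1 by 1.63 and TOP2A by 1.60 in size). At day 9 none of the 8 was called between treatments. Whether the lists differ beyond error was not tested.

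Markers of cell state differed between the treatments at both days, while the called replication genes were higher in LSB3i at day 9 and, with the exception of RRM2, lower at day 15. At day 9, 10 of 11 neuronal genes (median 3.47), all 4 neural crest genes (median 4.80) and 2 of 4 sensory neuron genes (median 3.14) were higher in LSB3i than in LSB, with 9 of 41 replication genes higher. At day 15 all 4 neural crest genes (median 4.71) and all 4 sensory neuron genes (median 5.92) were higher, with 29 of 41 replication genes lower. Of 4 genes of cell cycle exit, 1 was lower and 1 higher at day 9, and none was called at day 15 (median -0.35, with 3 at an unadjusted p under 0.05 in limma). All 11 neuronal genes tested, among them STMN2, NEFM and SYT4, were higher in LSB3i at day 15 (median 6.00), and their mean log2 level was 13.23 to 13.33 on the LSB3i arrays and 7.47 to 7.60 on the LSB arrays. The neural progenitor genes PAX6, LHX2, HES5 and SOX2 were lower there (4 of 5, with NES higher), and so were all 5 pluripotency genes. At LSB day 9, the neuronal list had 1 of 11 called higher than at day 3 with a median of 0.06, the progenitor list 4 of 5 higher, and 3 of 4 genes of cell cycle exit were higher (CDKN1A by 2.00, GADD45A by 1.41 and CDKN1C by 1.25). At LSB day 15 the last 3 were higher than at day 3 by 2.23, 1.30 and 1.44. Of 5 mesenchymal and smooth muscle genes, 3 were higher at LSB day 9 and all 5 at day 15 of both treatments. The part of these cell types, and of the cell cycle exit genes, in the replication result was not tested.

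The response at day 15 is also given by promoter motif. Of the 15 tested members with an E2F-type motif, 12 were lower in LSB3i and the median difference was -1.39. Of the 22 without one, 13 were lower and 1 higher, with a median of -1.38. POLA2 and TYMS, printed at the start with such motifs, were not called at day 15, and MCM2, printed without one, had the largest difference among the 41. No test was made of this split.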

How the data were processed

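Total RNA of the 33 arrays was hybridized to Illumina bead arrays. Per the file headers, the deposited non-normalized table holds a summary intensity and a detection p-value for each probe and array. The submitters' processing notes name GenomeStudio, with the version not given in the sources used here. A second table, of the authors' processed intensities, was not joined by its probe IDs, which gave correlations of 0.227 to 0.290 with the first table. It served as an alternative after matching probes by their ranks (48780 probes, correlation at least 0.983).

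Intensities were background-corrected with limma 3.58.1 in R 4.3.3 (normexp with detection p-values, offset 16), quantile-normalized and converted to log2. Probes entered where every array of some group detected them at p under 0.01 (14651), and the brightest probe stood for a gene, so its level is not comparable with that of another gene. Of the 48803 probes, 28098 have 1 symbol in the annotation, 13 several and 20692 none. One model of 11 group means was fitted to 10038 genes with lmFit and eBayes (22 residual degrees of freedom), and p-values were adjusted by Benjamini-Hochberg over all of them. The procedure was tested on simulated data. "At least" folds set an undetected group at the lowest detected signal of each array, or at its own value where that is higher. They apply to this processing and are not bounds over the alternatives. Gene groups and motifs were listed by function, any of the 47 genes could be named, array values were given for the most changed of each role, and of the other replication genes up to 4 per direction were named. The genes, lists, comparisons and tests were chosen with earlier results of these data known. Alternatives changed the scaling, background, filter, probes, weights, fold limit, samples and block.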

Additional observations from a re-analysis of the deposited data

Results flagged for a closer look

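The change from day 3 to day 15 differed between the treatments in 28 of the 41 genes, by limma's test of that difference (log2, LSB3i minus LSB, 3 arrays in each of 4 groups). All 28 values were negative. Among licensing genes these were CDT1 (-1.75), GMNN (-1.40), MCM2 (-1.91), MCM3 (-1.05), MCM4 (-1.35), MCM5 (-1.40), MCM6 (-1.19) and MCM7 (-1.53). Helicase activation gave MCM10 (-1.34), CDC45 (-1.63) and GINS2 (-1.28), and polymerases and primase gave POLA1 (-1.48), PRIM1 (-1.78) and POLE2 (-1.53). The clamp, its loader and the single-strand binding genes gave PCNA (-1.55), RFC1 (-1.79), RFC3 (-1.34), RFC4 (-1.90), RFC5 (-1.68), RPA1 (-1.40), RPA2 (-1.12) and RPA3 (-1.72). The others were LIG1 (-1.17), CHAF1A (-1.76), CHAF1B (-1.68), UHRF1 (-1.23), SLBP (-1.23) and CCNE1 (-1.47). No gene of nucleotide supply was among them. RRM1 (-1.18) and GINS3 (-1.07) differed by over 2-fold without a call. For both, LSB day 7 array C, which is outside this comparison but shares in the estimate of the spread, was far below A and B. CHAF1A and RFC1, with adjusted p of 0.0397 and 0.0363, and UHRF1, with 0.0237, were closest to the threshold.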

How the results depend on the processing

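Counts of called members at days 3 and 5 between treatments (0 under each setting run) and at day 15 stayed within 1.5 times the main value, as did the LSB3i day 15 against day 3, LSB day 9 against day 3 and difference counts. Of the calls, 23 of 30 at day 15, 20 of 28 differences and 14 of 24 in LSB3i from day 3 held under all alternatives run. So did 12 of 19 in LSB to day 9 and 15 of 19 in LSB from day 9. Between treatments at day 9, 6 of 9 held, and in LSB3i from day 9 to day 15, 8 of 14. No call changed sign. At day 7 (3 as reported) array weights gave 5 and no minimum fold 14 (8 lower and 6 higher). Leaving out the LSB3i A arrays of days 3 to 9 gave 5, and leaving out 1 array gave 3 to 10. With no minimum fold, 18 members were called at day 9, 11 from LSB day 3 to 15, 29 from LSB day 9 to 15, 29 from LSB3i day 9 to 15 and 10 from LSB3i day 3 to 9. From LSB day 3 to 15 (4), median scaling gave 1, an offset of 50 without detection p-values 2, the authors' processed values 2, and leaving out 1 array 2 to 4. From LSB3i day 3 to 9 (5), an offset of 50 gave 2, the authors' values 2, and leaving out 1 array 2 to 6. The causes of these moves were not tested. With the letter as a replicate block, 30 members were called at day 15, as without it, and no count moved by over 1.5 times. On average the letters showed no pairing: deviations correlated at 0.004 between arrays sharing a letter and -0.002 between the rest. In 2 of 55 pairs of groups, every same-letter correlation was over 0.1. An average over all groups cannot exclude shared handling of some arrays. The slide could not be fitted as a block, since the columns name none. Leaving out the LSB day 7 arrays and the comparisons of day 9 with day 3 were added after seeing the data. Of the 41 tested members, 30 were detected on all arrays. Signal limits ORC1, CHAF1A, RRM2, CDT1 and CHAF1B, each undetected on some arrays of LSB day 9 or LSB3i day 15.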
